A study of Mus musculus with 48 samples.

Results

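Motile cilia are the beating, hair-like organelles that cover the ependymal cells lining the brain ventricles, and the genes described here encode their motor, their scaffold and the factors that switch them on. The set was a list of 36 symbols of motile cilium and ependymal genes, chosen by name, of which 34 had a row in the count table with at least 10 reads in at least 4 libraries, out of 24060 gene rows. Dnah12 and Cdhr4 had no row and were not analysed here. Of the 34 genes, 32 reached 10 reads in all 48 libraries, Tekt4 did so in 47 and Tekt2 in 22.

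The libraries came from adult mice of strain C57, 24 by the series description, whose striatum had received a RiboTag virus 3 weeks before RNA extraction, so all groups carried HA-tagged Rpl22, a ribosomal protein, in striatal astrocytes. From each mouse the RNA bound to tagged ribosomes was pulled down and sequenced (IP), as was the RNA of the whole lysate before the pull-down (input), which holds all cells of the tissue. The groups were MPTP, a toxin of dopaminergic neurons (20 mg/kg, 4 doses, labelled as given into the striatum), against vehicle; SAPAP3 knockout, lacking a postsynaptic scaffold protein, against wild-type littermates; and hM4Di, an engineered Gi-coupled receptor, against control cargo, both in R6/2 mice, a Huntington's disease model. Every group had 4 replicates per fraction. The promoter of the RiboTag virus, the ages and any agonist of hM4Di are not given in the sources used here, and the R6/2 experiment had no mice without the R6/2 transgene. The titles give a different animal number for the IP and the input of MPTP replicate 2, and wild-type replicate 3 carries a joined number that could mean 2 mice.

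A motile cilium is built on a ring of microtubule pairs around a central pair. Dynein arms on the ring pull neighbouring pairs past each other, radial spokes and the central pair set the rhythm, and nexin links and molecular rulers hold the spacing. In multiciliated cells the forkhead factor Foxj1 and the RFX factors, which bind a promoter element called the X-box, turn these genes on together, whereas most other brain cells carry at most an immotile primary cilium.

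IP libraries held 34.3 to 61.5 M counted reads and input libraries 21.9 to 39 M. The 15 astrocyte markers listed were all higher in IP in each experiment, and all 10 microglial markers were lower. Oligodendrocyte markers had median log2 fold changes of 0.15, 0.8 and 0.01 in the MPTP, SAPAP3 and R6/2 experiments. Of 10, 4 were called higher in the SAPAP3 experiment and 1 lower in the R6/2 experiment, whose arms differed. In R6/2 mice their sum was 786 to 1130 FPKM in control IP libraries, against 1330 to 1650 FPKM in control input libraries. With hM4Di it was 1440 to 2090 FPKM in IP, against 1350 to 1650 FPKM in input. Medium spiny neuron markers had medians of -0.87, -0.52 and -0.71, with 3, 0 and 1 of 12 called lower. Dlgap3, the gene of SAPAP3, lay at 13 to 22.8 FPKM in knockout IP libraries against 40.2 to 55.5 FPKM in wild-type IP libraries, and at 43.4 to 52.4 FPKM in knockout input against 98.4 to 135 FPKM in wild-type input. The titles of the 3 experiments open with different numbers, whose meaning the titles do not state. Experiment and any batch behind these numbers cannot be told apart. Replicates are separate mice by the series description.

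The genes were low to moderate in level. On the length-normalized FPKM scale, the median over the 24 IP libraries was highest for Foxj1, at 27.7 FPKM (range 15.5 to 38.2), followed by Rfx3 at 14.3 FPKM (11 to 18.3) and Rsph9 at 11.7 FPKM (8.99 to 17.3). Tmem212 followed at 9.51 FPKM (3.36 to 15.4) and Ccdc153 at 8.8 FPKM (4.39 to 17.8). These 2 ranges, and those of Rsph9 and Rfx3, overlapped each other. The lowest medians in IP were those of Spag17, at 0.34 FPKM, and Tekt2, at 0.125 FPKM. In the input libraries the order was different: Rfx3 led at 13.5 FPKM (11.2 to 18.7), then Drc1 at 8.16 FPKM (6.13 to 13.8), Foxj1 at 6.32 FPKM (4.1 to 9.46) and Rsph9 at 6 FPKM (4.75 to 8.53). For comparison, the astrocyte transporter Slc1a3 had a median of 610 FPKM in IP and 128 FPKM in input.

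Most of the genes were enriched in the astrocyte precipitate. A gene was called when the Benjamini-Hochberg adjusted p of edgeR's quasi-likelihood test over all genes was below 0.05 and, for IP against input, the fold was at least 2. In the MPTP experiment 29 of the 34 genes were called higher in IP, where 12.5% of 15862 genes tested were, and 1 was called lower, where 14% were. In the SAPAP3 experiment 29 were called higher, against 11.9% of 16059 genes, and 0 lower, against 13%. In the R6/2 experiment 28 were called higher, against 11.3% of 15880 genes, and 1 lower, against 12.3%. The median log2 fold change of the 34 genes was 1.52, 1.85 and 1.66 in the MPTP, SAPAP3 and R6/2 experiments, and that of all genes tested was -0.02, 0 and -0.02. Of the 34 genes, 28 were called higher in all 3 experiments, Dnah6 in 2, and Rfx3, Ccno, Ccdc39, Drc1 and Tekt2 in none. More ciliated cells among the tagged cells and more such RNA per tagged cell cannot be told apart in bulk libraries.

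**Figure D1:**
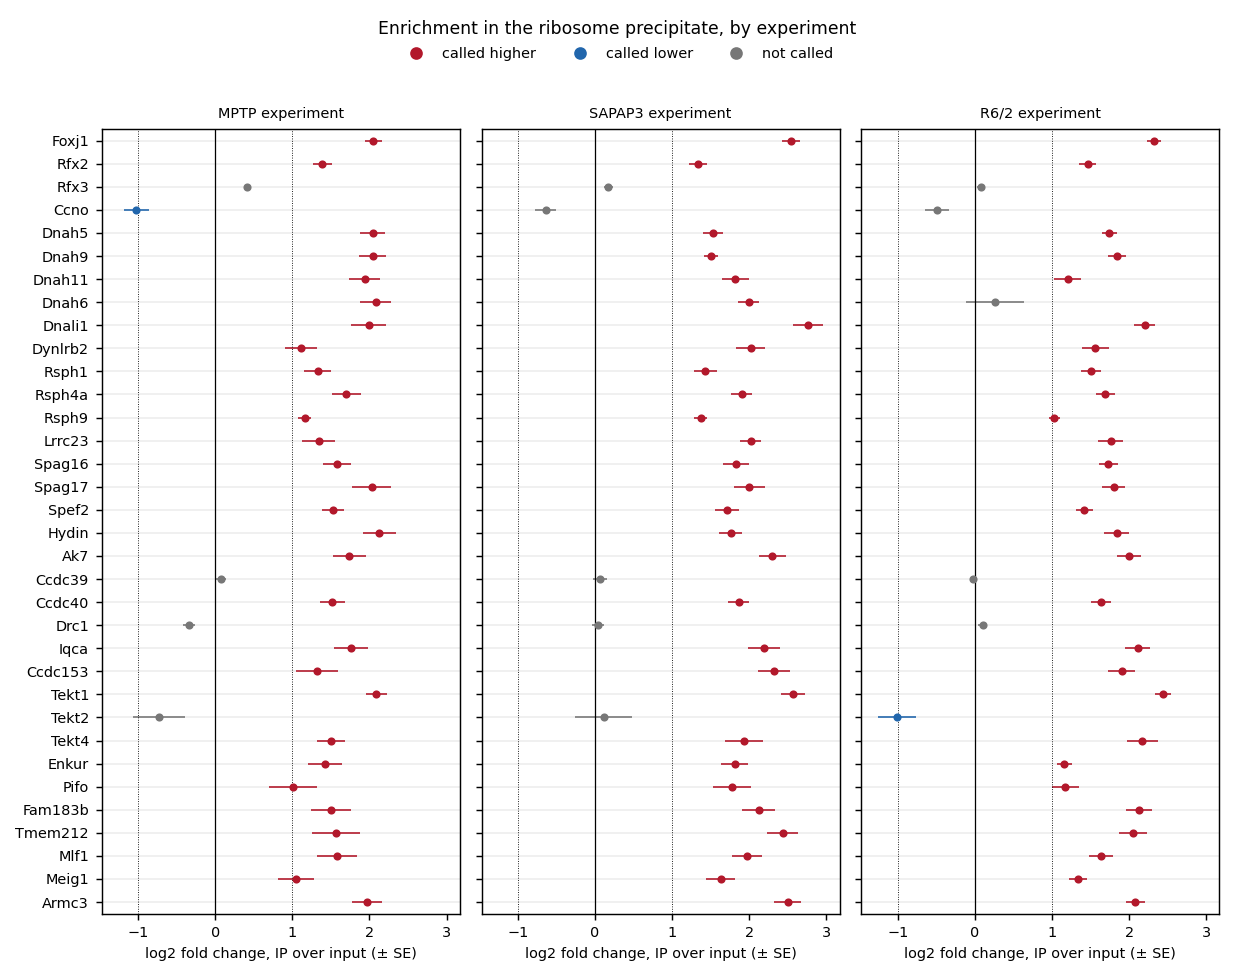
Log2 fold change of IP over input (x axis, ± SE) for the 34 genes (y axis) in each experiment, 8 IP and 8 input libraries each; red and blue mark called genes and dotted lines a 2-fold change. Most genes lie between 1 and 2.76, and Rfx3, Ccno, Ccdc39, Drc1 and Tekt2 lie near or below 0 in every panel, as does Dnah6 in the R6/2 panel at 0.26.

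Among the regulators, Foxj1, the forkhead factor that turns on motile cilium genes, was enriched in every experiment. In the MPTP experiment it spanned 58.5 to 102 CPM (reads scaled to the TMM-adjusted library size) in IP with a median of 74.5, against 14.8 to 23 CPM in input with a median of 17.8. In the SAPAP3 experiment it spanned 61.8 to 109 CPM in IP (median 83.2), against 13.4 to 20.5 CPM in input (median 14.8). In R6/2 mice it spanned 41.3 to 79.4 CPM in IP (median 57.9), against 9.24 to 14.9 CPM in input (median 12.9). No IP library overlapped an input library, and the log2 fold changes were 2.05 ± 0.11, 2.54 ± 0.12 and 2.32 ± 0.09 (SE) with adjusted p of 4.22e-12, 2.13e-12 and 2.07e-13. Rfx2, an RFX factor that acts with Foxj1, was higher by 1.39 ± 0.12, 1.33 ± 0.12 and 1.46 ± 0.11 on the log2 scale.

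Rfx3, the other RFX factor listed, behaved differently. In the MPTP experiment it spanned 139 to 177 CPM in IP against 106 to 124 CPM in input, without overlap. In the SAPAP3 experiment it spanned 113 to 151 CPM in IP against 99.3 to 126 CPM in input, and in R6/2 mice 126 to 172 CPM in IP against 132 to 152 CPM in input, and both pairs overlapped. It had a log2 fold change of 0.41 ± 0.04 in the MPTP mice (adjusted p = 3.91e-08, below the 2-fold limit), 0.17 ± 0.06 in the SAPAP3 experiment (adjusted p = 0.0157) and 0.08 ± 0.05 in R6/2 mice (adjusted p = 0.127). Ccno, a cyclin family protein needed to multiply the centrioles of multiciliated cells, ran the other way. It averaged 2.43 ± 1.19 CPM in MPTP IP, 2.47 ± 0.31 CPM in vehicle IP, 4.7 ± 0.73 CPM in MPTP input and 5.21 ± 0.5 CPM in vehicle input (SD, n = 4 each). It had a log2 fold change of -1.02 ± 0.16 in the MPTP mice (adjusted p = 7.96e-06, called lower), and -0.64 ± 0.14 and -0.49 ± 0.15 in the SAPAP3 and R6/2 experiments, below the 2-fold limit.

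The dynein arm genes were called higher in all 3 experiments, except Dnah6 in R6/2 mice. Dnali1, an axonemal dynein light intermediate chain, was higher by 1.99 ± 0.23, 2.76 ± 0.2 and 2.2 ± 0.14 on the log2 scale in the MPTP, SAPAP3 and R6/2 experiments. The outer arm heavy chains followed. Dnah5 was higher by 2.04 ± 0.17, 1.53 ± 0.13 and 1.74 ± 0.1, and Dnah9 by 2.04 ± 0.17, 1.5 ± 0.09 and 1.84 ± 0.12. Dnah11 was higher by 1.94 ± 0.2, 1.82 ± 0.17 and 1.2 ± 0.18, and the light chain Dynlrb2 by 1.11 ± 0.2, 2.02 ± 0.19 and 1.56 ± 0.18. Dnah6, an inner arm heavy chain, was higher by 2.08 ± 0.2 and 1.99 ± 0.14 in the first 2 experiments (adjusted p = 1.72e-08 and 3.94e-10), but by 0.26 ± 0.38 in R6/2 mice (adjusted p = 0.542).

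The spoke and central pair genes were all enriched in all 3 experiments. The radial spoke head genes Rsph1, Rsph4a and Rsph9 had log2 fold changes of 1.03 to 1.9, the least of them Rsph9 in R6/2 mice at 1.03 ± 0.08 (adjusted p = 1.27e-09). Lrrc23, a further spoke component, lay at 1.34 ± 0.22, 2.02 ± 0.14 and 1.76 ± 0.17. The central apparatus genes Spag16, Spag17, Spef2 and Hydin ranged from 1.42, for Spef2 in R6/2 mice, to 2.13, for Hydin in the MPTP experiment. Ak7, an adenylate kinase of ciliated cells, reached 2.3 ± 0.18 in the SAPAP3 experiment.

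The ruler and nexin link genes split. Ccdc40 was higher by 1.52 ± 0.17, 1.86 ± 0.13 and 1.63 ± 0.13, and its partner in the molecular ruler, Ccdc39, had log2 fold changes of 0.07 ± 0.07, 0.06 ± 0.09 and -0.02 ± 0.05 (adjusted p = 0.362, 0.567 and 0.71). The gap between these partners was many times their SEs in each experiment. Iqca, of the nexin link, was higher by 1.76 ± 0.23, 2.19 ± 0.21 and 2.11 ± 0.16, whereas Drc1, of the same complex, had -0.34 ± 0.08, 0.04 ± 0.08 and 0.1 ± 0.06. Ccdc153, often used as an ependymal marker, was higher by 1.32 ± 0.27, 2.32 ± 0.21 and 1.9 ± 0.17. Ccdc39 shares 1256 exonic bases, 16.9% of its exons in GENCODE M21 on GRCm38, with Ttc14 on the opposite strand. In all, 8 of the 34 genes share exonic bases with another gene, always on the opposite strand, 4 of them with a gene that has its own row. The library kit was stranded, the strand setting of the counting is not given in the sources used here, and its part in these values was not tested.

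The tektins, filament proteins inside the ciliary microtubules, also split. Tekt1 was higher by 2.09 ± 0.13, 2.57 ± 0.16 and 2.44 ± 0.11 on the log2 scale, and Tekt4 by 1.5 ± 0.18, 1.93 ± 0.25 and 2.17 ± 0.2. Tekt2 had few reads, between 1 and 22 in any library, and log2 fold changes of -0.73 ± 0.34, 0.11 ± 0.36 and -1.01 ± 0.25, of which the R6/2 value was called lower (adjusted p = 0.00141). Enkur, Pifo and Fam183b had log2 fold changes between 1.01, for Pifo in the MPTP experiment, and 2.13, for Fam183b in R6/2 mice. Tmem212, an ependymal marker, was higher by 1.57 ± 0.31, 2.43 ± 0.2 and 2.05 ± 0.18, and Armc3, an armadillo repeat protein, by 1.97 ± 0.2, 2.5 ± 0.18 and 2.08 ± 0.13. Mlf1 and Meig1 lay between 1.05, for Meig1 in the MPTP experiment, and 1.97, for Mlf1 in the SAPAP3 experiment.

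**Figure D2:**
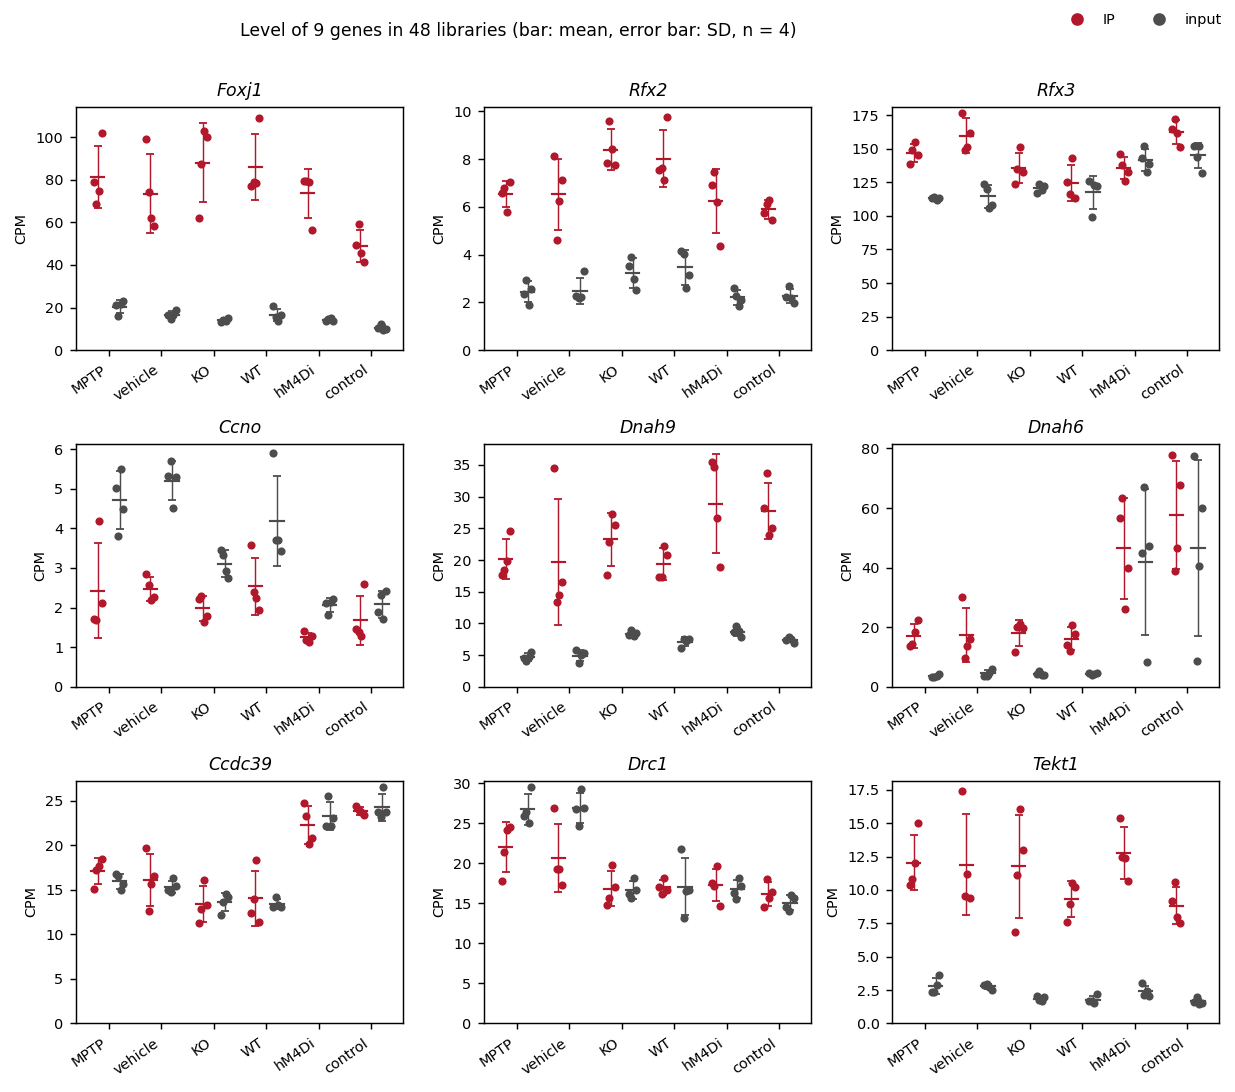
CPM (y axis, from 0) of 9 of the genes in each of 48 libraries, with IP in red and input in grey for each group (x axis); points are libraries, bars the mean and error bars the SD of 4. Foxj1, Rfx2, Dnah9 and Tekt1 separate IP from input in every group, Ccdc39 overlaps in every group, Rfx3 and Drc1 overlap in some groups and not in others, Ccno has a lower mean in IP in every group, and Dnah6 in R6/2 input ranges from 8.26 to 77.5 CPM.

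The enrichment was seen replicate by replicate. Each replicate is counted here as 1 mouse, although the titles of MPTP replicate 2 give different animal numbers for its IP and input. Of the 34 genes, 26 were higher in IP than in input of the same replicate in all 24 mice, and Tekt1, Dnali1, Foxj1, Armc3, Dnah5 and Dnah9 were over 2-fold higher in all 24. The shares of all genes that were so in all 24 mice were not counted. The median ratio over mice was 2.37 on the log2 scale for Tekt1 (range 1.7 to 3.25), 2.33 for Dnali1 (1.01 to 3.16) and 2.3 for Foxj1 (1.62 to 2.88). At the other end, Ccno was higher in IP in 1 of 24 mice, Tekt2 in 6, Ccdc39 in 10, Drc1 in 11 and Rfx3 in 19. The number of genes over 2-fold in a mouse ranged from 14, in vehicle replicate 4, to 30, in knockout replicates 3 and 4, while 10.2% to 14.5% of all genes were over 2-fold in a mouse.

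Vehicle replicate 1 stood apart in IP. Its IP library was the highest of the 24 for 18 of the 34 genes, and its median log2 ratio of IP to input was 2.37, against 1.2, 1.33 and 0.87 in vehicle replicates 2, 3 and 4. Vehicle replicate 2 was the lowest IP library for 13 genes and knockout replicate 1 for 11. The summed level of the 34 genes was 141 to 218 FPKM in MPTP IP libraries and 114 to 227 FPKM in vehicle IP libraries. Without vehicle replicate 1 or any other replicate, 26 to 29 of the genes were still called higher in the MPTP experiment.

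**Figure D3:**
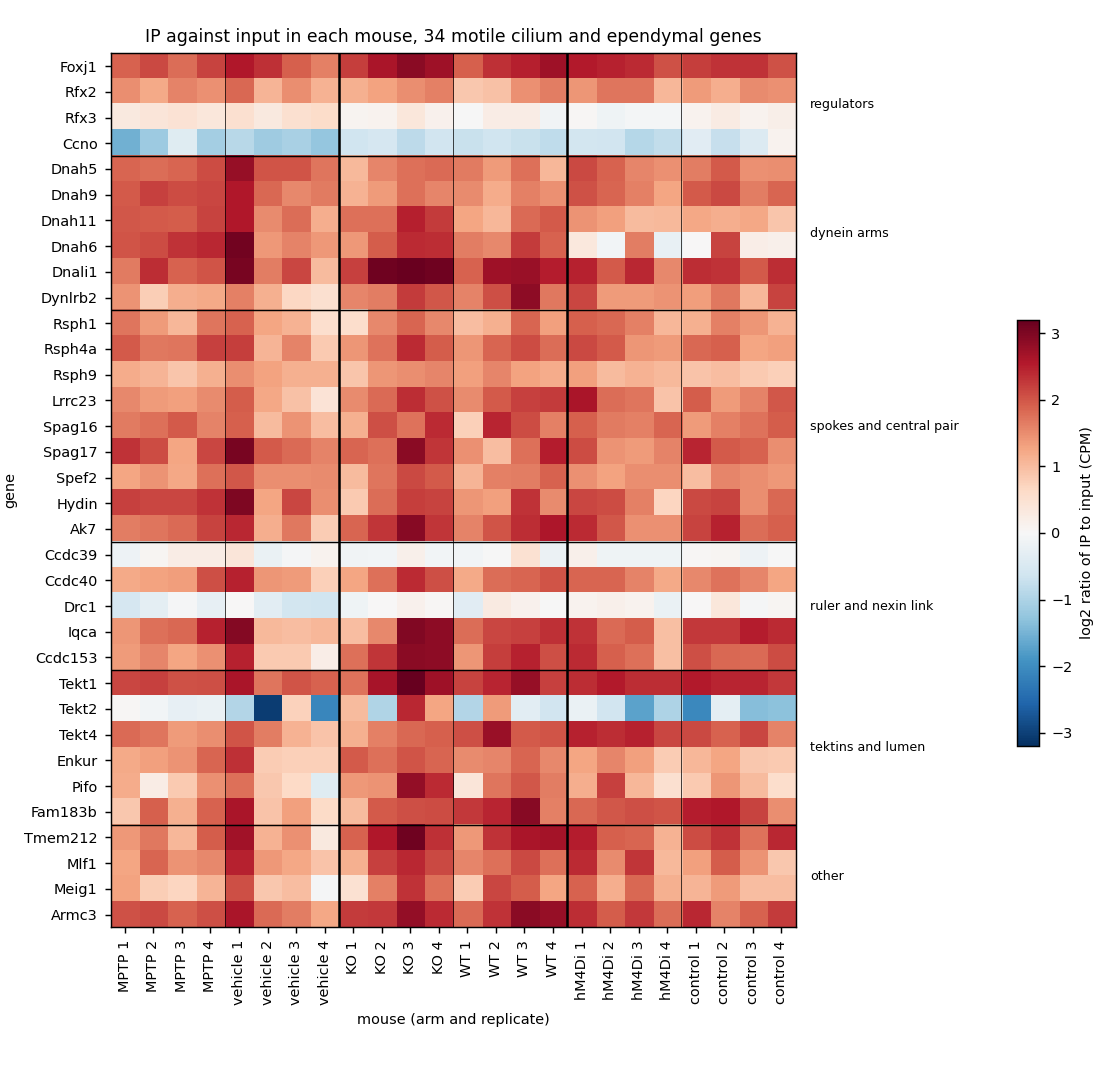
Log2 ratio of IP to input CPM (colour, red higher in IP) for each of the 34 genes (rows, by role) in each of 24 replicates, each counted as 1 mouse (columns). The rows of Rfx3, Ccno, Ccdc39 and Drc1 stay pale or blue, that of Tekt2 runs from -3.03 to 2.41 with 4 mice over 2-fold, the column of vehicle replicate 1 is the reddest of its group with a median of 2.37, and Dnah6 is pale in most R6/2 mice.

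Related lists showed how far the enrichment reached. Of all genes tested, 12.5%, 11.9% and 11.3% were called higher in IP in the MPTP, SAPAP3 and R6/2 experiments, and 14%, 13% and 12.3% lower. Of 97 other motile cilium genes tested, 51, 54 and 50 were called higher in these experiments and 0 lower, with median log2 fold changes of 1.14, 1.22 and 1.09. Among the strongest by p were Dnaic2, a dynein intermediate chain, at 2.01 ± 0.08 (adjusted p = 6.47e-14), Stk36, a kinase of the central apparatus, at 1.25 ± 0.07, and Ccdc114, a docking protein of outer dynein arms, at 1.81 ± 0.1, all in the MPTP experiment. Genes of the primary cilium and of intraflagellar transport were different: 3, 2 and 2 of 49 were called higher, with medians of 0.11, 0.16 and 0.06. Of 12 tested regulators of multiciliogenesis, 5, 6 and 4 were called higher and 1 lower in each, which in the MPTP experiment was Mcidas, at -2.2 ± 0.17 (adjusted p = 8.2e-10), an upstream activator of the program. Of 10 ependymal genes outside the cilium, 4, 6 and 5 were called higher. These included the intermediate filament gene Vim, at 2.32 ± 0.13, which astrocytes also express, and the planar polarity gene Vangl2, at 1.55 ± 0.09, in the MPTP experiment.

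Markers of choroid plexus epithelium, another ciliated tissue of the ventricles, were low. Of 13 listed, 9, 9 and 8 were tested in the MPTP, SAPAP3 and R6/2 experiments. In IP, 3, 4 and 3 were called higher and 1, 1 and 0 lower, with median log2 fold changes of 0.37, 0.31 and 0.4. For 9 of the listed genes the sum was 3.75 to 7.98 FPKM over the IP groups and 4.29 to 13.5 FPKM over the input groups. The transthyretin gene Ttr had a median of 0.161 FPKM in IP and 0.787 FPKM in input, and Kcne2 was at 0 in 17 of 24 IP and 9 of 24 input libraries. The highest value of Ttr was 4.77 FPKM, in an input library. Folr1, also on the list, went the other way, with a median of 0.815 FPKM in IP and 0.278 FPKM in input. The medians of Otx2, Steap1, Cldn2, Aqp1 and Slc4a5 were also higher in IP. Those of Clic6, Kl, Kcnj13, Prlr and Sostdc1 were lower in IP, with Clic6 at 2.45 FPKM in IP and 5.48 FPKM in input. The ependymal list outside the cilium summed to 385 to 602 FPKM in the IP libraries of the MPTP and SAPAP3 experiments. Their input libraries held 233 to 288 FPKM. In R6/2 mice the list summed to 315 to 368 FPKM in control IP, against 210 to 218 FPKM in control input. With hM4Di it summed to 476 to 538 FPKM in IP, against 229 to 236 FPKM in input. The list holds Vim, which astrocytes also express, and which tagged cells gave this RNA was not tested.

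The size of the enrichment differed between experiments for some of the genes, and their number depended on the fit. A test over all 48 libraries called a difference for 7 of the 34 genes (20.6%), where 49.1% of 16607 genes were called. The count was 18 without vehicle replicate 1, 4 without wild-type replicate 2 and 3 with limma-voom (8.82%), where limma-voom called 48.2% of all genes. For the fits with a replicate left out the share of all genes is not given here, so their counts cannot be set against it. The 7 were Rfx3 (adjusted p = 3.31e-05), Dnah6 (0.000296), Drc1 (0.00834), Dnah11 (0.0313), Dnah9 (0.0392), Rsph9 (0.0398) and Dynlrb2 (0.0417) by edgeR's test. The largest gap was that of Dnah6, whose log2 enrichment in R6/2 mice was 1.88 below that in the MPTP experiment. With the replicate block, which pairs the IP and input of a replicate, 19 genes (55.9%) were called, where 61.9% of all genes were.

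Dnah6 in R6/2 mice was the most uneven of the genes. In the 16 input libraries of the other experiments it lay between 0.279 and 0.505 FPKM. In R6/2 input libraries it was at 4.05, 6.11, 0.762 and 4.34 FPKM in the 4 hM4Di mice and at 7.02, 0.79, 3.68 and 5.36 FPKM in the 4 control mice. All 8 lay above the other experiments, with 1 low mouse in each arm. The IP libraries of the same mice held 4.45, 5.15, 2.08 and 3.18 FPKM with hM4Di and 6.01, 3.03, 3.56 and 5.17 FPKM with control cargo, so the mice that were lowest in input were also lowest in IP. The gene lies on chromosome 6, from 73017606 to 73221651 on the minus strand of GRCm38.

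Other genes of the set also lay apart in the R6/2 libraries, at shares no higher than those of all genes. In input, 5 of the 34 genes (Rfx3, Ccdc39, Dnah6, Dnah11 and Enkur) lay above all 16 other input libraries, where 17.5% of 16525 genes did, and Ccno lay below them, where 5.52% did. In IP, Ccdc39 lay above all 16 others, where 11.9% of genes did, and 0 lay below, where 2.57% did. Ccdc39 measured 20.2 to 24.7 CPM in R6/2 IP libraries against 11.3 to 19.7 CPM in the other IP libraries. These are descriptions across experiments whose titles open with different numbers, and they cannot be told apart from any batch behind these numbers.

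With MPTP none of the genes passed the test. In IP, 0 of 33 tested genes were called higher or lower by edgeR, where 0% of 15069 genes were called in either direction, and 0 had an unadjusted p below 0.05, as 1692 of all genes did. Foxj1 had 79, 68.8, 74.8 and 102 CPM in MPTP IP libraries, against 99.1, 74.3, 62 and 58.5 CPM in vehicle IP libraries. The ranges overlapped, and the log2 fold change was 0.16 ± 0.17 (adjusted p = 0.767). The fold change was above 0 for 30 of the 33 genes with a median of 0.18, and for 51.9% of all genes with a median of 0.01. That median depended on single mice: it was 0.6 without vehicle replicate 1, and 0.06 without MPTP replicate 4 or without vehicle replicate 2. In input, 0 of 33 were called, where 0% of 15601 genes were, and 2 had an unadjusted p below 0.05, as 1289 of all genes did. The MPTP effect in IP minus that in input was called for 0 of 34 genes, where 0% of 15862 genes were called higher or lower. An unadjusted p below 0.05 was found by edgeR for 0 of the 34 and for 1266 of all genes.

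With SAPAP3 knockout none of them passed it either. In IP, 0 of 33 genes were called, where 0.00658% of 15198 genes were called higher and 0.0197% lower, and 1 had an unadjusted p below 0.05 by edgeR, as 399 of all genes did. Tekt1 had 6.86, 11.1, 16.1 and 13 CPM in knockout IP libraries, against 7.59, 8.97, 10.5 and 10.2 CPM in wild-type IP libraries. Knockout replicate 1 was the lowest of all and the other 3 knockout libraries lay above every wild-type library, for a log2 fold change of 0.35 ± 0.22 (adjusted p = 0.999). The fold change was above 0 for 28 of the 33 genes with a median of 0.17, and for 52.6% of all genes with a median of 0.01. The median of the 33 was 0.35 without knockout replicate 1, 0.07 without knockout replicate 3 and 0.32 without wild-type replicate 3. In input the median was -0.02 and 0 of 33 were called by edgeR, where 0% of 15591 genes were higher and 0.00641% lower, and 1 had an unadjusted p below 0.05, as 869 of all genes did. The knockout effect in IP minus that in input was called for 0 of 34 genes, where 0% of 16059 were called higher or lower. An unadjusted p below 0.05 was found by edgeR for 0 of the 34 and for 203 of all genes. DESeq2 and limma-voom also called 0 of the genes with MPTP or knockout, in either fraction.

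hM4Di in R6/2 mice was the perturbation in which some of the genes passed the test. In IP, 3 of the 34 were called higher (8.82%), where 9.06% of 15159 genes were, and 1 was called lower (2.94%), where 5.63% were, so both shares were close to those of all genes. Foxj1 had 79.3, 79.4, 79 and 56.6 CPM in hM4Di IP libraries, against 49.3, 59.3, 45.5 and 41.3 CPM in control IP libraries. Replicates 1, 2 and 3 of hM4Di lay above all control libraries and replicate 4 lay among them, for a log2 fold change of 0.61 ± 0.14 (adjusted p = 0.0226).

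Tekt1 had 15.4, 12.5, 12.4 and 10.7 CPM in hM4Di IP libraries, against 9.18, 10.6, 7.96 and 7.53 CPM in control IP libraries. The groups did not overlap, and the log2 fold change was 0.55 ± 0.14 (adjusted p = 0.0306). Armc3 had 9.69, 9.05, 8.3 and 6.69 CPM in hM4Di IP libraries, against 6.05, 6.87, 5.98 and 5.77 CPM in control IP libraries, with replicate 4 of hM4Di inside the control range, for 0.47 ± 0.12 (adjusted p = 0.0341). Rfx3 had 146, 138, 126 and 133 CPM in hM4Di IP libraries, against 165, 172, 162 and 151 CPM in control IP libraries. All hM4Di libraries were below all control libraries, and the log2 fold change was -0.24 ± 0.05 (adjusted p = 0.0198).

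The folds of the genes called with hM4Di kept their direction with a library left out, but the calls often changed. Without hM4Di replicate 2, or without control replicate 1, 3 or 4, 0 of the genes were called higher. Of all genes, 744, 606, 861 and 814 were called higher in these fits. Without hM4Di replicate 1 only Foxj1 was called higher, and without hM4Di replicate 3 only Rsph1, where 1382 and 1035 of all genes were. Without hM4Di replicate 4 the count was 7, and without control replicate 2 it was 6, where 1111 and 1051 of all genes were called higher. Over all alternatives the log2 fold change of Foxj1 lay between 0.535 and 0.72, that of Tekt1 between 0.454 and 0.644 and that of Armc3 between 0.348 and 0.568. With a library left out, Rfx3 was still called lower, except without control replicate 1. Its log2 fold change lay between -0.278 and -0.194 over all alternatives. The fold change was above 0 for 28 of the 34 genes with a median of 0.23, and for 51.2% of all genes with a median of 0.01. The median of the 34 was 0.16 without hM4Di replicate 2 or without control replicate 3, and 0.36 without control replicate 2. Where 9.06% of all genes were called higher and 5.63% lower, 15 of 98 other motile cilium genes were called higher and 0 lower. The smallest p among them was that of Dnajb13, a radial spoke protein, at 0.86 ± 0.12 (adjusted p = 0.00466), and Ccdc114 was at 0.68 ± 0.13. Capsl, whose role in cilia is not well known, was at 0.75 ± 0.12.

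Markers of other cells moved in the same IP libraries. All 10 oligodendrocyte markers were called higher with hM4Di, with a median log2 fold change of 0.84, and they summed to 1440 to 2090 FPKM in hM4Di IP libraries against 786 to 1130 FPKM in control IP libraries. Of 12 medium spiny neuron markers, 8 were called lower, and they summed to 579 to 608 FPKM with hM4Di against 682 to 1050 FPKM with control cargo. Of 15 astrocyte markers, Gfap was called higher and Slc1a2 and Aldoc lower. Among the ependymal genes outside the cilium, Vim (1.03 ± 0.14) and S100a6 (0.77 ± 0.12) were called higher, that list summed to 476 to 538 FPKM with hM4Di against 315 to 368 FPKM with control cargo, and choroid plexus genes summed to 5.03 to 7.78 FPKM with hM4Di against 5.41 to 7.98 FPKM with control cargo. The part of these cells in the result was not tested.

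In R6/2 input libraries 0 of the 34 genes were called, where 0.0198% of 15168 genes were called higher and 0% lower, and 5 had an unadjusted p below 0.05, as 1163 of all genes did. The smallest was that of Foxj1, which had 13.7, 14.4, 14.9 and 13.9 CPM in hM4Di input libraries, against 10.6, 12.1, 9.24 and 10.1 CPM in control input libraries. These groups did not overlap, and the log2 fold change was 0.45 ± 0.09 (unadjusted p = 0.000485, adjusted p = 0.292 by edgeR). DESeq2 called Foxj1, with an adjusted p of 0.00859, and called 0.283% of all genes higher. The hM4Di effect in IP minus that in input was called for 0 of the 34 genes, where 1.9% of 15880 genes were called higher and 1.2% lower. An unadjusted p below 0.05 was found by edgeR for 1 of the 34 and for 2834 of all genes. For Foxj1 this difference was 0.15 ± 0.18 and for Tekt1 -0.02 ± 0.21. With the replicate block by mouse, Rfx3 was called lower, at -0.22 (adjusted p = 0.00502), where 9.03% of all genes were lower and 8.36% higher.

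**Figure D4:**
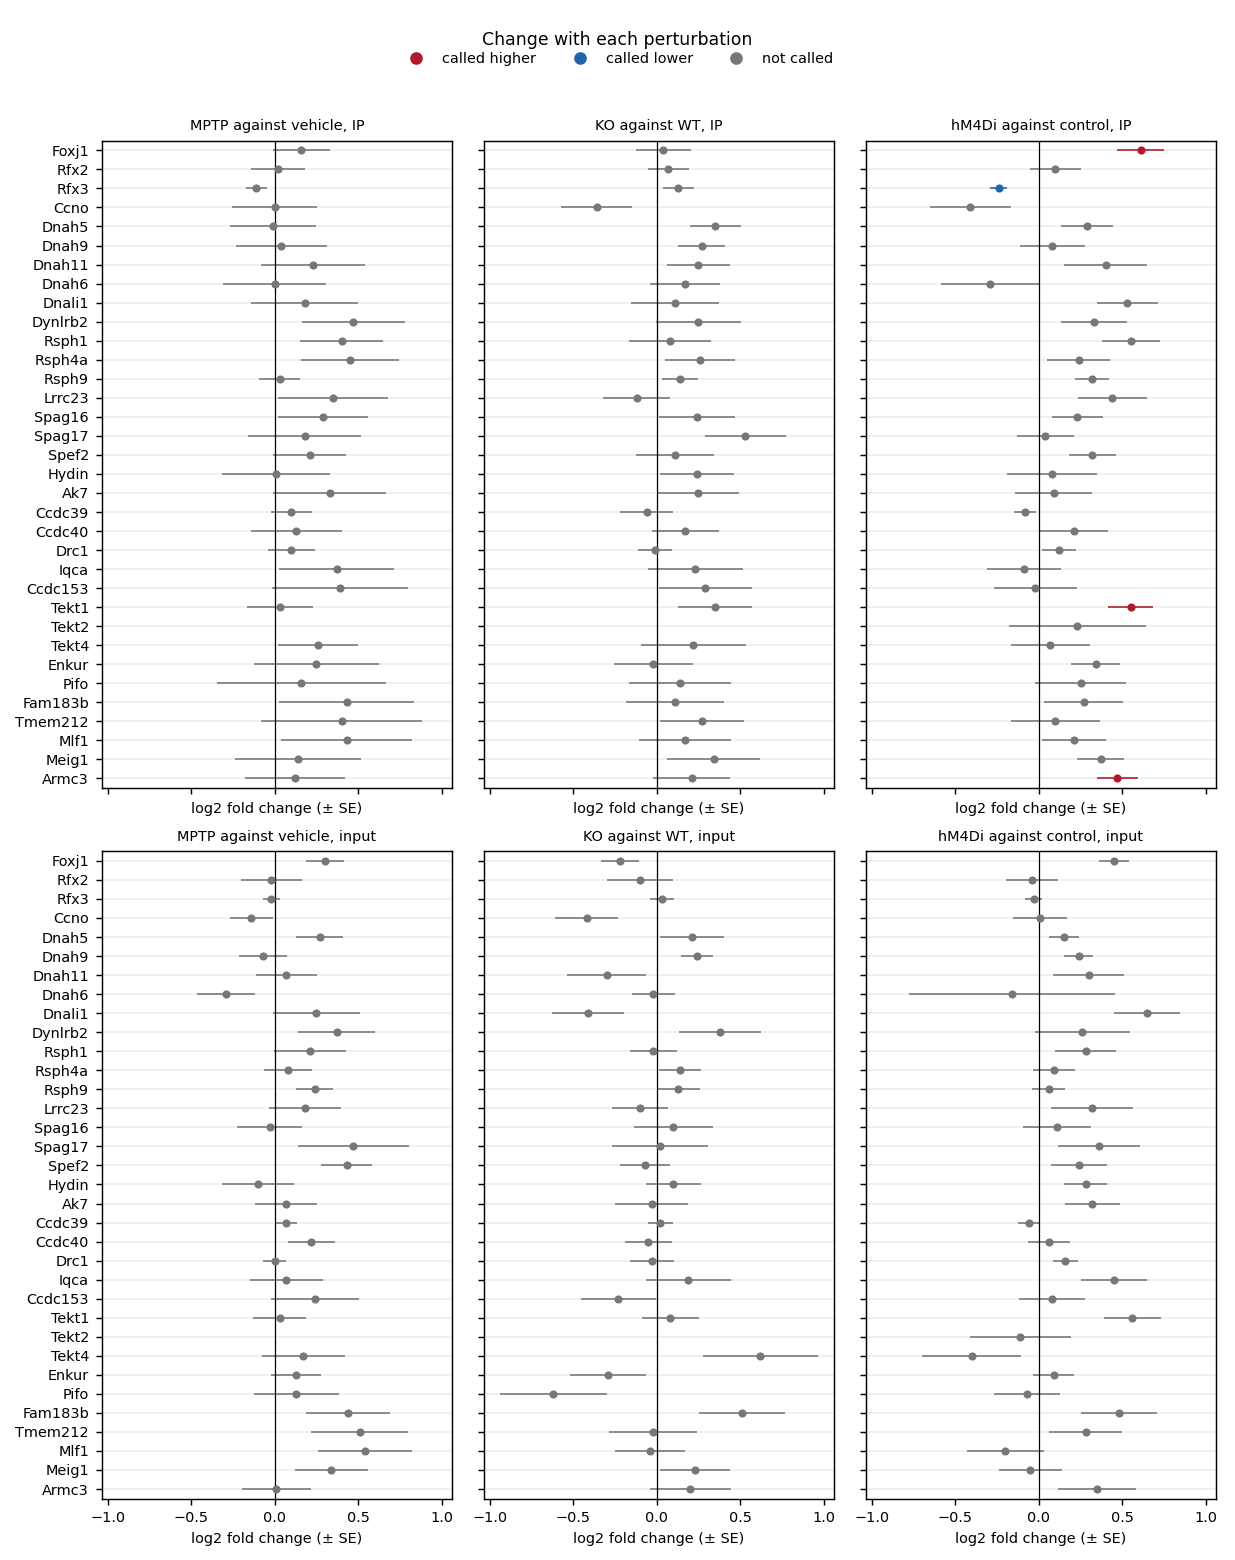
Log2 fold change (x axis, ± SE) of the 34 genes (y axis) with MPTP, SAPAP3 knockout and hM4Di, in IP (top) and input (bottom), 4 libraries per group; Tekt2 is not shown where it did not pass the filter. Coloured points appear only for hM4Di in IP, where Foxj1, Tekt1 and Armc3 are higher at 0.61, 0.55 and 0.47 and Rfx3 is lower at -0.24.

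The promoters of these genes were searched for the motifs of the factors in the set. RefSeq promoters on GRCm38.p6, 250 bases before to 50 after the start, were given for 31 of the 34 genes, and Foxj1, Rsph1 and Rsph4a had none. An X-box, taken as a pair of RFX sites of 6 bases in inverted order with at most 3 bases between them, on either strand, was present in 8 of the 31 genes (25.8%), against 1.75% of all 27025 genes with a promoter. Its 6-base core GTTGCC, part of the X-box pattern and so counted again where it lies inside one, was present on either strand in 18 (58.1%), against 14.1%. The forkhead motif GTAAACA was present in 2, Ak7 and Mlf1 (6.45%), against 4.05%. Of the 8 X-box genes, 6 were called higher in IP in all 3 experiments (6 of 25 such genes with a promoter), and Tekt2 and Ccno were not (2 of 6). The sequences below are the stretches around the X-box in the 7 genes where it lies before the start (in Spef2 it lies after it), 5′ to 3′ on the strand of the gene, ending before the start, with the X-box in capitals. They are shown to place the element in front of genes for a dynein chain, the central pair, a spoke, the nexin link, a tektin and a centriole factor, and their likeness is set by the search pattern. Dynlrb2 is at chr8:116504924-116505014 on the plus strand, Hydin at chr8:110266916-110266976 on the plus strand, Spag16 at chr1:69826827-69826920 on the plus strand, Lrrc23 at chr6:124779839-124779931 on the minus strand, Tekt2 at chr4:126325689-126325757 on the minus strand, Iqca at chr1:90153437-90153524 on the minus strand and Ccno at chr13:112987552-112987636 on the plus strand.
Dynlrb2: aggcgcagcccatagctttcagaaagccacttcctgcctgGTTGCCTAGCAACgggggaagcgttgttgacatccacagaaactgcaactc
Hydin: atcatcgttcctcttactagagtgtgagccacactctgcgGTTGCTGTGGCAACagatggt
Spag16: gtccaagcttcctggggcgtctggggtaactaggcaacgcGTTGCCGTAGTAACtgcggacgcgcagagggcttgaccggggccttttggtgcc
Lrrc23: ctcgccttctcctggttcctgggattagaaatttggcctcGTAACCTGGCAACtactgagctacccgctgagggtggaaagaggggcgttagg
Tekt2: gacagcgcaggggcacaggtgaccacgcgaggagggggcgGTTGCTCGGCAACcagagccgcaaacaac
Iqca: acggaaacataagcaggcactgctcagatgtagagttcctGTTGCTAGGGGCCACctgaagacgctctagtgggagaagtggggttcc
Ccno: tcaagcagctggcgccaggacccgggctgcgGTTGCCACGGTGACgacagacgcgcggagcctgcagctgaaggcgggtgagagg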

How the data were processed

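The submitters' processing notes name STAR, HTSeq and the mm10 build, with no version, annotation or strand setting. The authors deposited whole read counts per gene symbol and FPKM values, which equal the deposited counts divided by a gene length and the column total. The genes and lists were chosen with earlier results of these data known. Named genes of other lists were the 4 of smallest p in IP against input of the MPTP experiment and any called with a perturbation; others were chosen after their values were seen, and some genes are not reported here.

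The tests used edgeR 4.0.16 under R 4.3.3 (filterByExpr with a minimum count of 10, TMM scaling, quasi-likelihood F test). Perturbed and control libraries of a fraction were compared within each experiment, and IP and input with the condition in the model. SE is the size of the log2 fold change over the square root of F. Apart from MPTP replicate 2, titles give the IP and the input of a replicate 1 animal number, and their deviations correlated at 0.295 to 0.554 in R6/2 mice, 0.138 to 0.432 in the SAPAP3 experiment and 0.0332 to 0.27 in the MPTP experiment. No library was found deposited in duplicate. Fits were tested on simulated data.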

Additional observations from a re-analysis of the deposited data

Results flagged for a closer look

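Of 408 sets of 4 libraries (each gene in each group), 43 (10.5%) held a library whose gap to the nearest other was above Dixon's critical value, where chance gives about 5%. Vehicle IP replicate 1 was the high library for 12 genes: Tmem212 at 12.6 CPM (others 2.72 to 3.31), Rsph4a at 30.3, Ccdc40 at 23.5, Dnah9 at 34.5, Dnah11 at 15.5, Pifo at 5, Enkur at 9.97, Fam183b at 5.68, Mlf1 at 7.61, Lrrc23 at 10.4, Dynlrb2 at 5.61 and Armc3 at 12.4 CPM. Vehicle input replicate 4 was high for Rfx2 at 3.3, Dnali1 at 3.37 and Fam183b at 1.32 CPM.

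MPTP IP replicate 4 was high for Rsph9 at 13.4 CPM, MPTP IP replicate 3 for Ccno at 4.19 CPM and MPTP input replicate 4 for Spag16 at 2.38 CPM. Knockout IP replicate 1 was low for Spag16 at 3.66, Spef2 at 3.39 and Dnah6 at 11.6 CPM. Knockout input replicate 3 was high for Ccdc153 at 2.66 CPM and replicate 2 low for Mlf1 at 0.631 CPM.

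Wild-type IP replicate 4 was high for Foxj1 at 109 CPM (others 77.1 to 78.9), and replicate 3 for Enkur at 6.27 and Armc3 at 7.55 CPM. Wild-type input replicate 2 was low for Rfx3 at 99.3 and Tekt2 at 0.0691 CPM and high for Ccdc39 at 14.2 CPM. Wild-type input replicate 1 was high for Ccno at 5.89 and Pifo at 1.47 CPM, and replicate 4 for Rsph9 at 5.71 and Fam183b at 0.93 CPM.

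In R6/2 mice, hM4Di IP replicate 4 was low for Foxj1 at 56.6 CPM (others 79 to 79.4) and Enkur at 5.16 CPM. Control IP replicate 2 was high for Ccdc40 at 16.8, Dnali1 at 8.17 and Fam183b at 6.76 CPM, and control IP replicate 4 for Ccno at 2.6 CPM. Control input replicate 3 was high for Ccdc39 at 26.5 CPM, replicate 1 low for Spag17 at 0.58 CPM, and replicate 4 high for Mlf1 at 1.76 and low for Dynlrb2 at 0.702 CPM.

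The enrichment in IP differed among the 3 experiments by edgeR's test of that difference for Rfx3 (adjusted p = 3.31e-05), Dnah6 (0.000296), Drc1 (0.00834), Dnah11 (0.0313), Dnah9 (0.0392), Rsph9 (0.0398) and Dynlrb2 (0.0417).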

How the results depend on the processing

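With limma on log2(FPKM + 1), 4, 15 and 12 of the genes were called higher in IP in the MPTP, SAPAP3 and R6/2 experiments; 29, 29 and 28 were above 0 with an adjusted p below 0.05 there, and the pseudocount of 1 shrinks the folds of low genes. The genes called lower numbered 0 with that fit and with no filter beyond 1 read (MPTP and R6/2) and with a mean CPM of at least 1 (R6/2). With a replicate left out, 26 to 29, 29 and 27 to 28 were called higher in the 3 experiments and 0 to 1 lower. With the replicate block 27, 29 and 28 were called higher.

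With hM4Di in IP, DESeq2 called 6 higher (17.6%), where 12.3% of all genes were. With all 16 libraries in 1 fit, 5 were called higher (14.7%), where 12% of all genes were. With a replicate left out, 0 to 7 were called higher and 0 to 1 lower, and 0 were called lower with limma on log2(FPKM + 1). In input DESeq2 called 1 higher (2.94%), where 0.283% of all genes were. The replicate block gave 1 gene lower in the hM4Di effect in IP minus input. Among the experiments 19 were called with the replicate block and 3 with limma-voom, where 61.9% and 48.2% of all genes were. With a replicate left out, 4 (without wild-type replicate 2) to 18 (without vehicle replicate 1) were called, with no share of all genes given here. Same-numbered mice of the 2 arms correlated at over 0.1 in 0 of 4 pairs in either fraction of the MPTP and R6/2 experiments, and in 2 of 4 (IP) and 1 of 4 (input) in the SAPAP3 experiment.

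Signs turned only for genes near 0, and the cause was not tested. With upper-quartile scaling the log2 values were -0.0673 for Ccdc39 (MPTP), -0.0317, -0.0842 and -0.1 for Tekt2, Ccdc39 and Drc1 (SAPAP3), and -0.0392 and -0.0213 for Rfx3 and Drc1 (R6/2). With limma on log2(FPKM + 1) they were -0.132 for Ccdc39 (MPTP), -0.0508, -0.00981, -0.135 and -0.148 for Rfx3, Tekt2, Ccdc39 and Drc1 (SAPAP3), and -0.15 and -0.127 for Rfx3 and Drc1 (R6/2). With a mean CPM of at least 1, Ccdc39 and Drc1 were at -0.019 and -0.0337 (SAPAP3), and with no filter Ccdc39 was at 0.00751 (R6/2). With a replicate left out, Tekt2 lay between -0.106 and 0.34 and Ccdc39 between -0.0197 and 0.0773 in the SAPAP3 experiment, and Ccdc39 between -0.0455 and 0.00288 in R6/2 mice. Reads of 1 to 22 per library limit Tekt2.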

Other observations

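Genes of the primary cilium, the immotile sensory organelle, were called with hM4Di in IP about as often as all genes. Of 49, 4 were called higher and 3 lower, where 9.06% and 5.63% of all genes were. Their median log2 fold change was 0.02, and that of all genes was 0.01. Tulp3, an adaptor that carries receptors into the cilium, had a log2 fold change of 0.6 ± 0.09 (adjusted p = 0.00517 by edgeR), and Arl13b, a ciliary GTPase, 0.23 ± 0.06. Dync2h1, the motor of retrograde transport, was at -0.22 ± 0.06.

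The R6/2 mice that were low in Dnah6 were high in some neighbouring genes and low in others, which were looked at after the Dnah6 values were seen. Of 21 genes within 1.5 Mb with a mean of at least 1 FPKM in input, 12 had a rank correlation with Dnah6 below 0 and 8 above it, the highest that of Kdm3a, a histone demethylase gene, at 0.74 in input and 0.62 in IP. Polr1a, a subunit of RNA polymerase I, lay at 12.1, 9.86, 15.5 and 12.4 FPKM in hM4Di input libraries and at 10.3, 15.3, 12.5 and 9.96 FPKM in control input libraries. Its rank correlation over these 8 mice, a description, was -0.9 in input and in IP. In IP, St3gal5, a sialyltransferase gene, was at 0.93. Mrpl35, a mitochondrial ribosomal protein gene, lay at 7.27, 5.48, 9.39 and 7.03 FPKM with hM4Di and at 5.86, 9.69, 6.84 and 5.3 FPKM with control cargo in input, with rank correlations of -0.81 in input and -0.9 in IP. hM4Di replicate 3 and control replicate 2, the lowest in Dnah6, were the highest of their arms in both genes. The Dnah6 levels and these neighbours come from the same libraries, and the reason for the pattern was not tested.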
